A study of Rattus norvegicus with 12 samples.

Results

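RNA of exosomes shed by wild-type ASML tumour cells (wt exosomes) was set against RNA of untreated B12 stroma cells. The arrays were chosen by their labels alone: 3 arrays of wt exosomes and 2 arrays of untreated B12 cells, 5 of the 12 arrays of the series. ASML is a metastasizing rat pancreatic adenocarcinoma line, and the exosomes were collected from cells that carried no knockdown. B12 is a rat lymph node stroma line that received no treatment here, and the headers of its untreated arrays also give 24 h. The remaining 7 arrays hold exosomes of an ASML CD44v knockdown line (kd exosomes, n = 3) and B12 cells kept for 24 h with either kind of exosome (n = 2 per kind). The comparison asks which transcripts tumour exosomes carry relative to the stroma cells that receive them. Parental ASML cell RNA was not analysed here, so a difference between vesicles and cells and a difference between ASML and B12 cannot be told apart, and neither can fewer cells of a type and less RNA per cell. The labels name 1 tumour line and 1 stroma line, and do not say whether replicates came from separate preparations, so the p-values measure the spread between these arrays, which may be technical.

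Exosomes are small vesicles that form inside multivesicular endosomes and leave the cell when these fuse with the plasma membrane. They carry membrane proteins of the sending cell, among them tetraspanins, integrins and, in ASML cells, CD44 variant isoforms, together with mRNA and small RNA that can reach a receiving cell. Lymph node stroma cells build the collagen and fibronectin scaffold of the node and secrete the chemokines that guide lymphocytes.

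The exosome arrays were dimmer. Mean signal over background was 108.4, 173 and 138 intensity units on the wt exosome arrays, against 504.7 and 587.8 on the untreated B12 arrays (exact permutation test, two-sided p = 0.2, the smallest that 3 against 2 arrays can give). The share of the 21946 probes that was detected came to 42.76%, 46.28% and 45.82% in wt exosomes, against 53.21% and 53.18% in untreated B12 cells (the same exact test, p = 0.2). A probe was counted as detected where its deposited p-value against background was under 0.05 and it lay above background. The arrays were therefore brought to 1 distribution by quantile normalization, which compares within-array ranks, and levels are normalized log2 intensities. A probe detected on every array of at least 1 group entered limma, which left 11097 probes and 7581 named genes. A call is a Benjamini-Hochberg adjusted p under 0.05, and differences are wt exosomes minus untreated B12 cells in log2, with their standard error (SE). Log2 levels correlated at 0.962 to 0.971 between wt exosome arrays, 0.939 between the 2 untreated B12 arrays and 0.802 to 0.845 between the groups.

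The RNA of wt exosomes and of untreated B12 cells differed across much of the transcriptome. Of 11097 probes, 5281 (47.6%) were called, 2644 (23.8%) higher and 2637 (23.8%) lower in wt exosomes, so 50.1% of the calls were higher. Median scaling, the alternative that moved this split most, shifted the median of all genes to -1.36 and gave 902 higher and 6393 lower, or 12.4% higher. Over the named genes, 3611 of 7581 (47.6%) were called, 1617 (21.3%) higher and 1994 (26.3%) lower, with a median difference of -0.111. The groups did not overlap at 70.3% of the genes tested (33.1% higher and 37.2% lower) and at 70.8% of the probes (36.8% higher and 34% lower). Detection was read without any normalization. All 3 wt exosome arrays and neither untreated B12 array detected 328 probes, both untreated B12 arrays and no wt exosome array detected 1346, and 7121 were detected on all 5 arrays. Of the 100 probes with the highest level in wt exosomes, 73 were also among the 100 with the highest level in untreated B12 cells, and of the top 1000, 686 were.

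The 2 untreated B12 arrays did not carry the same marker RNA. Array 1 held epithelial transcripts that array 2 held at far lower levels. Lgals4, a galectin of gut epithelium, read 13.64 on array 1 and 8.49 on array 2. Cdh17, the liver-intestine cadherin, read 10.46 and 6.85, and Krt19, a simple epithelial keratin, 13.16 and 8.72. Stroma transcripts ran the other way: Lum, the collagen-binding proteoglycan lumican, read 6.29 on array 1 and 12.96 on array 2, and Cxcl12, a stromal chemokine, read 6.88 and 14.26. Epithelial marker probes summed to 0.525% of the signal over background on array 1 and 0.107% on array 2, and stroma marker probes to 0.631% and 1.96%. The second principal component of the 5 arrays, with 10.3% of the variance, separated these 2 arrays, while the first, with 79.5%, separated wt exosomes from B12 cells. The part of this difference in the results below was not tested beyond the values given for each array.

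Epithelial transcripts were prominent in the exosome RNA, while Lgals4 and Cdh17, gut-type members of the same list, were not detected in it. Of 27 epithelial carcinoma markers tested, 14 were higher in wt exosomes and 2 lower, with a median difference of 1.81 (1.60 with genes detected in only 1 group set at their bound). The called share of all genes was 21.3% higher and 26.3% lower. Leaving out B12 array 2 changed the counts to 13 and 4 with a median of 0.98, and leaving out B12 array 1 to 15 and 2 with 1.92. Summed over the list, the marker probes took 0.612%, 0.651% and 0.580% of the signal in wt exosomes, against 0.525% and 0.107% in untreated B12 cells. Members not detected on all 5 arrays entered the test through 1 group only, so the filter partly set their direction. The 11 markers detected on all 5 arrays gave 5 higher and 0 lower, with a median of 2.49. All 7121 probes detected on all 5 arrays gave 2152 higher and 1038 lower.

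Epcam, the epithelial adhesion molecule, had levels of 11.18, 11.34 and 11.07 in wt exosomes, against 4.16 and 4.15 in untreated B12 cells, where no array detected it. All exosome arrays lay far above both B12 arrays, and after quantile normalization the level was at least 108-fold higher (limma adjusted p = 2.3e-05). Over the alternatives on a log2 scale its difference was 4.53 to 7.92. Krt7, a keratin of ducts and glands, read 12.06, 12.25 and 11.95 in wt exosomes and 4.50 and 4.80 in untreated B12 cells, a difference of 7.44 ± 0.18 (SE). Rab25, a GTPase that recycles cargo to the apical surface, read 11.01, 10.99 and 10.99 in wt exosomes and 5.18 and 4.96 in untreated B12 cells. Crb3, an apical polarity protein, read 10.54, 10.32 and 10.38 in wt exosomes, against 5.42 and 5.25. In all of these genes the exosome replicates lay close together and far from both B12 arrays. Cldn3, a tight junction claudin, was at least 47.8-fold higher, and Esrp1, an epithelial splicing regulator, rose by 5.15 ± 0.24 (SE, limma adjusted p = 7.44e-05). Pkp3, a desmosomal plakophilin, and the membrane proteases St14 and Prss8 rose by 5.05, 3.02 and 2.49.

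Promoters of epithelial genes are known as targets of the repressors Snail and Zeb, which bind the E-box CAGGTG, read on the other strand as CACCTG. The 250 bases before the start are shown for the 4 called members with the largest differences that had an entry in the RefSeq promoter table (build GRCr8), because these genes separated the groups most. Each E-box is in capitals, and each sequence reads 5′ to 3′ along the gene.
Epcam (chr6:12649679-12649928, minus strand): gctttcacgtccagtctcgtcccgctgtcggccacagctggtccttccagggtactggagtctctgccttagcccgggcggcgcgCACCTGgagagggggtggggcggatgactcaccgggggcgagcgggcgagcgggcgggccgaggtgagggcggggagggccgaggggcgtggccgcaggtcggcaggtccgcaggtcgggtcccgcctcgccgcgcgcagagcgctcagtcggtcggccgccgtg
Rab25 (chr2:176304222-176304471, minus strand): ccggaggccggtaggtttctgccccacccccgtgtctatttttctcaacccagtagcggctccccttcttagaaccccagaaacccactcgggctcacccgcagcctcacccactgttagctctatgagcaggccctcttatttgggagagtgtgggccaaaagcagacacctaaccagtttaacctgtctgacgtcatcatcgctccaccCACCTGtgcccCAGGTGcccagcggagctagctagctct
Cldn3 (chr12:27346548-27346797, minus strand): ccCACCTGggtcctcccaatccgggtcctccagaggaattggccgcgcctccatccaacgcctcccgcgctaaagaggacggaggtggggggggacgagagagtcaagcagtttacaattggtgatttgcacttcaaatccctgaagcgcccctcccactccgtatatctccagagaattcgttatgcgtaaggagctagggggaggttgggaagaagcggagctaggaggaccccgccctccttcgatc
Crb3 (chr9:1987504-1987753, plus strand): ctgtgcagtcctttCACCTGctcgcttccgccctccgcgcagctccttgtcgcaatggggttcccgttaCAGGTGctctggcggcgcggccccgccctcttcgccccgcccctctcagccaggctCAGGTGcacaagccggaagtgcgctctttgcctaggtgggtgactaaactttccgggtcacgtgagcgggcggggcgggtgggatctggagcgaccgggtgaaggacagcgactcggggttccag
Over the list, 12 of the 15 tested members with an entry held at least 1 E-box in this window on either strand, against 4315 of 27457 promoters in the whole table (15.7%) and 4 of 18 stroma and fibroblast markers (22.2%). The match is a description of letters, and binding was not measured.

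Some epithelial markers ran against the list. Lgals4 and Cdh17 were detected on no wt exosome array and were at least 83.8-fold and 16.2-fold lower than in untreated B12 cells. Against B12 array 1 alone these bounds were 498-fold and 56.6-fold, and against array 2 alone 14-fold and 4.65-fold. Cdh1, E-cadherin, was detected on 1 of 3 wt exosome arrays, with levels of 5.00, 4.44 and 4.45, against 8.23 and 4.76 in untreated B12 cells, and was not called (limma adjusted p = 0.143). Krt8 and Krt19, the keratins of simple epithelia, were high on all exosome arrays (12.78 to 13 and 13.68 to 13.77), but untreated B12 array 1 reached 13.19 and 13.16, and neither was called. Ocln and Grhl2 were detected on no array of either group.

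**Figure D1:**
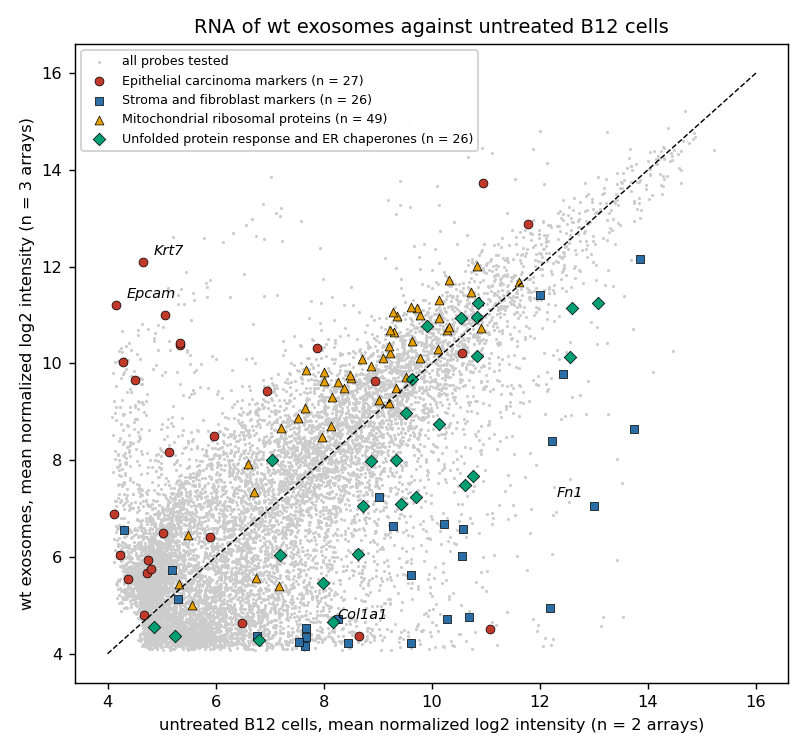
Mean normalized log2 intensity in wt exosomes (vertical axis, n = 3 arrays) against untreated B12 cells (horizontal axis, n = 2 arrays), 1 point per probe tested, with 4 gene lists coloured and the dashed line marking equal levels. Epcam and Krt7 lie above the line and Fn1 and Col1a1 below it. Mitochondrial ribosomal genes lie mostly just above the line here, but their median difference was negative under median scaling.

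Beyond the epithelial list, the largest rises included enzymes and surface proteins. Gpx2, a glutathione peroxidase of epithelia, read 12.60, 12.59 and 12.67 in wt exosomes, against 5.29 and 5.12 in untreated B12 cells, the largest difference among genes detected on all 5 arrays (7.42 ± 0.14, SE, limma adjusted p = 1.15e-05). Tgm1, a transglutaminase that crosslinks epidermal envelope proteins, read 10.96, 10.94 and 10.80 in wt exosomes and 5.12 and 5.96 in untreated B12 cells. Both groups were tight and far apart in these genes. The other genes detected on all arrays with the largest rises were Nicol1 (5.04), Ocm, which encodes the calcium-binding protein oncomodulin (4.81), and the histone gene H4c14 (4.77). Among genes that no untreated B12 array detected, Lad1, an anchoring filament protein of basement membranes, was at least 74.7-fold higher, Lypd3, a GPI-anchored surface protein linked to tumour spread, at least 58.7-fold, Cdkl1, a protein kinase, at least 59.3-fold, and Cd83, an immunoglobulin-type surface protein known from dendritic cells, at least 48.1-fold. Lad1, Lypd3, Cdkl1, Cd83 and Epcam were also detected on all 3 arrays of kd exosomes and on none of the 4 arrays of B12 cells exposed to exosomes.

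**Figure D2:**
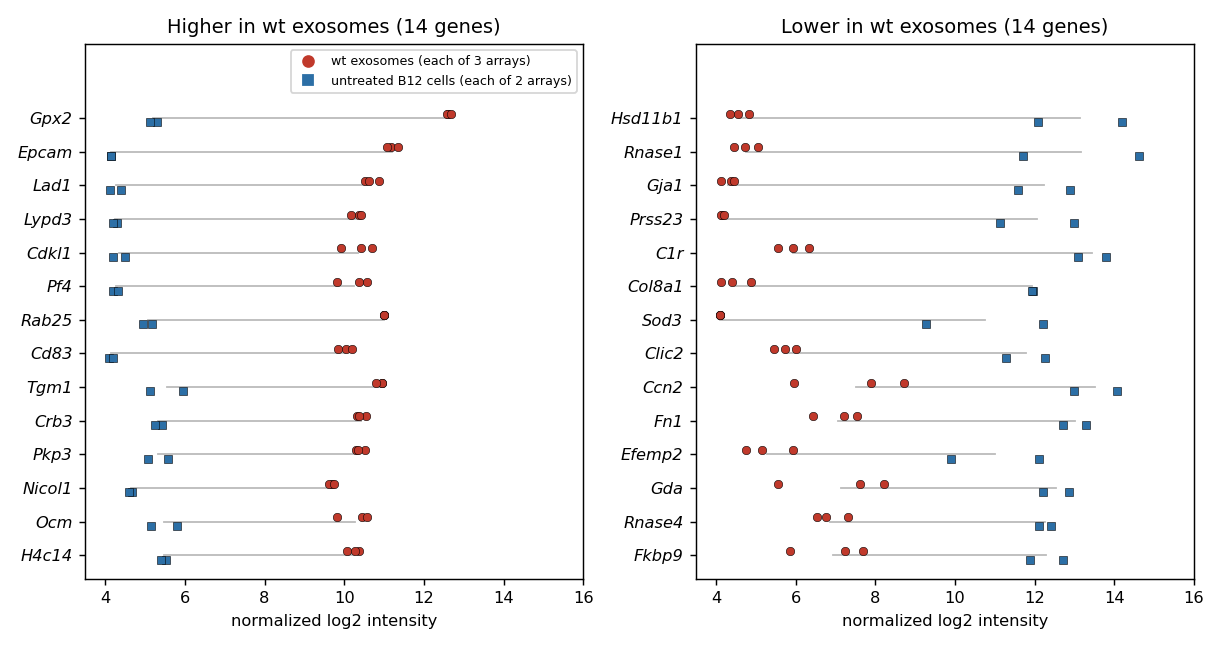
Normalized log2 intensity (horizontal axis) on each of the 3 wt exosome arrays (circles) and 2 untreated B12 arrays (squares) for the 14 genes with the largest rises (left) and the 14 with the largest falls (right) among genes detected on all 5 arrays (8 per side) or on no array of 1 group (6 per side). Grey lines join the group means, and no gene shown has overlapping groups.

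Stroma genes were scarce in the exosome RNA. Of 26 stroma and fibroblast markers tested, 19 were lower in wt exosomes and 1 higher, against 26.3% and 21.3% of all genes. Their median difference was -3.52 (-3.29 at the bounds). Without B12 array 1 the median was -4.71 over 29 genes tested, and without B12 array 2 it was -1.86 over 26. Their probes summed to 0.130%, 0.114% and 0.122% of the signal in wt exosomes, against 0.631% and 1.96% in untreated B12 cells. The 12 markers detected on all 5 arrays gave 9 lower and 0 higher, with a median of -3.7. The other members tested entered through 1 group only, so the filter partly set their direction. Of 33 markers of the list on the array, 25 were detected on both untreated B12 arrays, Col1a1, Col3a1, Fn1, Lum and Twist1 among them, while Thy1, Fap and Col6a2 were detected on none of the 5 arrays.

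Fn1, the matrix glycoprotein fibronectin, had levels of 7.21, 6.43 and 7.55 in wt exosomes, against 12.70 and 13.29 in untreated B12 cells, a difference of -5.94 ± 0.36 (SE, limma adjusted p = 0.00017). Col5a2, a fibrillar collagen chain, read 4.99, 4.17 and 5.68 in wt exosomes and 11.50 and 12.86 in untreated B12 cells, and Col3a1, another fibrillar chain, read 4.98, 4.30 and 4.86, against 9.52 and 11.07. No exosome array came near a B12 array in these genes. Col8a1, a short-chain collagen, was detected on no wt exosome array and was at least 149-fold lower. Twist1 and Twist2, transcription factors of mesenchymal cells, were at least 8.17-fold and 8.06-fold lower. Sparc, a matricellular protein, read 9.48, 6.86 and 8.83 in wt exosomes, against 11.59 and 12.87, so it was present in exosomes and lower by 3.85 ± 0.78 (SE). Vim, the mesenchymal intermediate filament, differed little in size but did not overlap: 11.36, 11.48 and 11.42 in wt exosomes, against 11.98 and 12.04 in untreated B12 cells (-0.59 ± 0.11, SE, limma adjusted p = 0.00587). S100a4, a calcium-binding protein of motile cells, stayed high in both groups, at 12.21, 12.17 and 12.11 in wt exosomes and 13.78 and 13.94 in untreated B12 cells (-1.70 ± 0.11, SE). Pdpn, the podoplanin of stroma and lymphatic cells, was the member that rose, at 7.12, 5.40 and 7.16 in wt exosomes and 4.34 and 4.27 in untreated B12 cells, where no array detected it (at least 4.34-fold, or 1.94-fold from exosome array 2 alone).

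Outside the list, the largest falls included secreted and membrane proteins. Hsd11b1, which regenerates active glucocorticoid, read 4.54, 4.34 and 4.83 in wt exosomes, against 12.09 and 14.18 in untreated B12 cells, and was at least 343-fold lower (165-fold against B12 array 1 alone and 704-fold against array 2 alone). Rnase1, a secreted ribonuclease, read 5.06, 4.45 and 4.73 in wt exosomes, against 14.63 and 11.70 in untreated B12 cells. It was at least 328-fold lower, with bounds of 909-fold against B12 array 1 and 119-fold against array 2. Gja1, the gap junction protein connexin 43, read 4.36, 4.12 and 4.46 in wt exosomes, against 11.59 and 12.89 in untreated B12 cells, and was at least 195-fold lower (124-fold and 306-fold against single B12 arrays). No exosome array detected any of these genes, and both B12 arrays lay far above all 3 exosome arrays. C1r, a protease of the complement cascade, read 6.34, 5.55 and 5.93 in wt exosomes, against 13.09 and 13.78 in untreated B12 cells (-7.49 ± 0.31, SE). Ccn2, a matricellular growth factor, was the most variable of these in exosomes, with 8.72, 5.96 and 7.89, against 12.99 and 14.06 in untreated B12 cells. Prss23, a secreted serine protease, read 11.13 and 12.99 in untreated B12 cells and was at least 172-fold lower in wt exosomes (90.3-fold against B12 array 1 alone and 328-fold against array 2 alone). Sod3, the extracellular superoxide dismutase, read 9.28 and 12.22 in untreated B12 cells and was at least 69.2-fold lower (24.9-fold and 192-fold). Efemp2, an elastic fibre protein, read 5.16, 5.94 and 4.76 in wt exosomes, against 9.90 and 12.12 in untreated B12 cells, a difference of -5.72. The remaining large falls were the chloride channel protein Clic2 (-6.04), the guanine deaminase Gda (-5.40), the ribonuclease Rnase4 (-5.39) and the ER prolyl isomerase Fkbp9 (-5.37).

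Tetraspanin proteins are classical exosome markers, but most of their mRNAs were lower in exosome RNA or did not pass the test. Of 16 tetraspanins tested, 9 were lower and 2 higher in wt exosomes, where all genes gave 26.3% and 21.3%. Their median was -1.30 (-1.23 at the bounds). The 9 tetraspanins detected on all 5 arrays gave 6 lower and 0 higher. Cd63 read 9.85, 9.16 and 9.63 in wt exosomes, against 10.03 and 10.76 in untreated B12 cells, and was not called (-0.85 ± 0.29, SE, limma adjusted p = 0.051), although it passed as lower without B12 array 1 (-1.24, limma adjusted p = 0.0111). It also passed as lower under median scaling (-2.76, limma adjusted p = 0.000165), the share of the mean signal (-1.63, 0.00424), cyclic loess (-1.10, 0.0321) and with the authors' values (-0.81, 0.045). Cd82, a tetraspanin known as a metastasis suppressor, read 8.96, 9.00 and 9.27 in wt exosomes and 10.04 and 10.57 in untreated B12 cells, a fall of 1.23 ± 0.21 (SE, limma adjusted p = 0.00459). Cd151, a partner of laminin-binding integrins, was called lower (-0.98 ± 0.31, SE, limma adjusted p = 0.0391), but lost the call on leaving out any 1 exosome array or B12 array 2 (adjusted p of 0.0688 to 0.116). Tspan3, Tspan6, Tspan14 and Tspan31 fell by 2.22, 2.08, 2.12 and 2.43.

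Tspan8, the tetraspanin for which ASML exosomes are best known, depended on the B12 array. It read 10.39, 10.65 and 10.54 in wt exosomes, against 14.08 and 9.71 in untreated B12 cells, so the exosome values lay between the 2 B12 arrays, and it was not called (-1.37 ± 1.12, SE, limma adjusted p = 0.341). Set against B12 array 1 alone the difference was -3.84 (limma adjusted p = 1.64e-05), and against array 2 alone 0.82 (limma adjusted p = 0.00404), where in both cases the lone B12 array is assumed to vary like the exosome arrays. Tspan1 and Tspan33 were the members that rose, detected on no untreated B12 array and at least 4.57-fold and 1.62-fold higher (2.96-fold for Tspan1 from exosome array 1 alone). Cd9 and Cd81 have no named probe in the table.

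Adhesion receptors that bind matrix were lower or did not pass the test. Of 10 integrin pathway genes tested, 5 were lower and 0 higher (all genes: 26.3% and 21.3%), with a median of -1.15. Leaving out any 1 exosome array left 2 lower. The 7 genes of this list detected on all 5 arrays gave 2 lower and 0 higher. The median was -1.17 over 12 genes tested without B12 array 1, and -0.72 over 11 without B12 array 2. Cd44, the hyaluronan receptor, read 8.25, 8.12 and 7.77 in wt exosomes, against 8.65 and 9.94 in untreated B12 cells, a difference of -1.25 ± 0.39 (SE, limma adjusted p = 0.0396). That call was lost on leaving out any 1 exosome array or B12 array 2 (adjusted p of 0.0803 to 0.122), and the table does not say which Cd44 isoforms the probe reads. Itga1 and Itga5, collagen and fibronectin receptor subunits, were detected on no wt exosome array and were at least 6.596-fold and 7.69-fold lower (for Itga5 5.12-fold and 11.6-fold against single B12 arrays). Itgb1, their shared partner, read 8.73, 8.67 and 8.79 in wt exosomes and 12.13 and 8.52 in untreated B12 cells, and was not called (limma adjusted p = 0.196). Itgb4, the partner of Itga6 in hemidesmosomes, read 7.38, 7.42 and 7.19 in wt exosomes, against 10.26 and 7.35. In both genes the exosome values lay near B12 array 2 and below array 1.

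**Figure D3:**
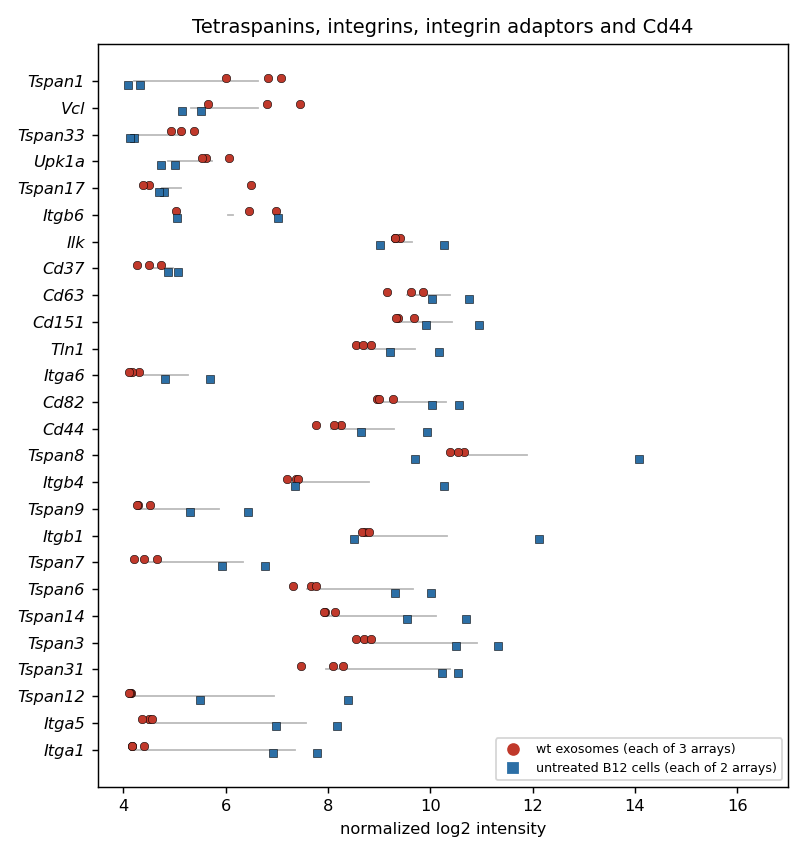
Normalized log2 intensity (horizontal axis) of the 26 tetraspanins, integrins, integrin adaptors and Cd44 tested, ordered by difference, on the 3 wt exosome arrays (circles) and 2 untreated B12 arrays (squares). Tspan8, Itgb1 and Itgb4 show 2 B12 arrays far apart, with the exosome arrays close together.

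Transcripts of the exosome-forming machinery showed no common direction. Of 31 genes tested, 9 were higher (29%) and 8 lower (25.8%), against 21.3% and 26.3% of all genes. The median was 0.04, and under median scaling 0 were higher and 23 lower. Leaving out any 1 exosome array brought the lower calls to 3 or 4, and leaving out exosome array 3 the higher calls to 4. Members of the ESCRT complexes, which bud vesicles into endosomes, included Chmp4c with 9.81, 9.94 and 9.93 in wt exosomes, against 8.31 and 7.86 in untreated B12 cells, and Snf8 with 10.63, 10.64 and 10.57, against 9.17 and 9.33. Both rose in the quantile-normalized data and were negative under median scaling (-0.16 and -0.52). Vps36, of the same complex as Snf8, fell by 1.25 ± 0.18 (SE), and Sdcbp, the exosome adaptor syntenin, fell by 0.80 ± 0.12 (SE). Rab27a, a GTPase of exosome release, was detected on 1 of 3 wt exosome arrays and fell by 1.90 ± 0.57 (SE). Among the annexins, Anxa2, a membrane-binding protein abundant in exosomes, read 13.11, 13.28 and 13 in wt exosomes and 13.01 and 13.08 in untreated B12 cells, with a difference of 0.08 ± 0.12 (SE), and 1 of 6 annexins was higher and 1 lower.

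After quantile normalization, genes of the translation apparatus had more higher than lower calls in exosome RNA, most often those of the mitochondrial ribosome, a direction that turned under median scaling. Of 49 mitochondrial ribosomal proteins tested, 33 were higher in wt exosomes and 0 lower, where all genes gave 21.3% and 26.3%. Their median was 1.06, that of all genes tested -0.11 and that of genes detected on all 5 arrays 0.223. Of these 49, 39 had every exosome array above both B12 arrays and 2 had every exosome array below, where all genes gave 33.1% and 37.2%. Without B12 array 2 the list median was 1.01 over 50 genes tested. Under median scaling 0 were higher and 21 lower with a list median of -0.78, and the list stayed 0.58 above all genes. Mrpl28 read 9.90, 9.80 and 9.85 in wt exosomes, against 7.59 and 7.75 in untreated B12 cells (2.18 ± 0.16, SE, limma adjusted p = 0.000298). Mrpl27 read 11.20, 10.90 and 11.09 in wt exosomes and 9.24 and 9.32 in untreated B12 cells. Under median scaling the differences of Mrpl28 and Mrpl27 were 0.21 and 0.0035 and neither was called (limma adjusted p = 0.622 and 0.993). Mrpl55 and Mrpl23 rose by 1.54 and 1.60, and were -0.18 and -0.20 under median scaling.

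Cytosolic ribosomal protein probes took 16.1%, 14.6% and 14.4% of the array's signal over background in wt exosomes, against 8.11% and 7.61% in untreated B12 cells, which is a measure of share without quantile normalization. In the normalized data 20 of 57 were higher (35.1%) and 4 lower (7.02%), against 21.3% and 26.3% of all genes, with a median of 0.20. All 57 were detected on all 5 arrays, and the median of all genes so detected was 0.223. Under median scaling 5 were higher and 10 lower with a median of -0.18, or 1.19 above all genes. Rps29 read 14.20, 14.09 and 14.15 in wt exosomes, against 12.17 and 12.08 in untreated B12 cells (2.02 ± 0.10, SE), and Rps24 read 9.90, 9.58 and 9.90, against 7.26 and 7.45, a difference that was 0.47 and not called under median scaling (limma adjusted p = 0.265). Rps21, among the 4 lower members, read 13.16, 13.26 and 13.13 in wt exosomes, against 13.85 and 13.73 in untreated B12 cells. Without B12 array 2, 24 members were higher and 10 lower. Probes of ribosomal proteins and histones can also read near-identical copies, which the files do not separate.

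Other housekeeping groups also had more higher than lower calls after quantile normalization, which turned under median scaling. Among all genes tested 21.3% were higher and 26.3% lower. Nearly all genes of the next 4 lists were detected on all 5 arrays. Genes so detected had a median of 0.223, and 2152 of 7121 such probes were higher and 1038 lower. Of 28 proteasome subunits, 13 were higher and 2 lower (median 0.36), and of 23 translation factors 9 and 3 (0.42). Of 56 respiratory chain genes, 22 were higher and 8 lower (0.23, the level of genes detected on all 5 arrays). Of 34 splicing factors, 9 (26.5%) were higher, near the share of all genes, and 3 (8.82%) lower (0.32). Under median scaling these medians were -1.01, -1.19, -1.25 and -1.41, and relative to all genes 0.35, 0.17, 0.11 and -0.04. Without exosome array 1, 4 translation factors were higher, and without exosome array 3, 3 respiratory chain genes were lower. Psma6, a core proteasome subunit, read 11.85, 11.91 and 11.88 in wt exosomes and 10.64 and 10.82 in untreated B12 cells. Cox5a, a subunit of cytochrome c oxidase, read 11.94, 11.99 and 11.88 in wt exosomes, against 10.82 and 10.97. Snrnp70, of the U1 splicing particle, rose by 1.89 ± 0.15 (SE), while Sf3b1, of the U2 particle, fell by 2.17 ± 0.44 (SE). Psma6, Cox5a and Snrnp70 were -0.31, -0.37 and -0.01 under median scaling. Among 8 histone genes tested 4 were higher and 1 lower (median 1.56), and 0 were lower on leaving out any 1 exosome array. Under median scaling 2 were higher and 2 lower, with a median of 0.15. H4c14 read 10.38, 10.06 and 10.27 in wt exosomes, against 5.53 and 5.41 in untreated B12 cells, and Hist1h4b was at least 8.48-fold higher, while Macroh2a1, a variant histone, was the lower member, with 11.21, 11.17 and 11.11, against 11.70 and 11.46. Terc, the RNA template of telomerase, was detected on all wt exosome arrays (7.59, 7.37 and 7.46) and on no untreated B12 array, and was at least 8.14-fold higher.

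**Figure D4:**
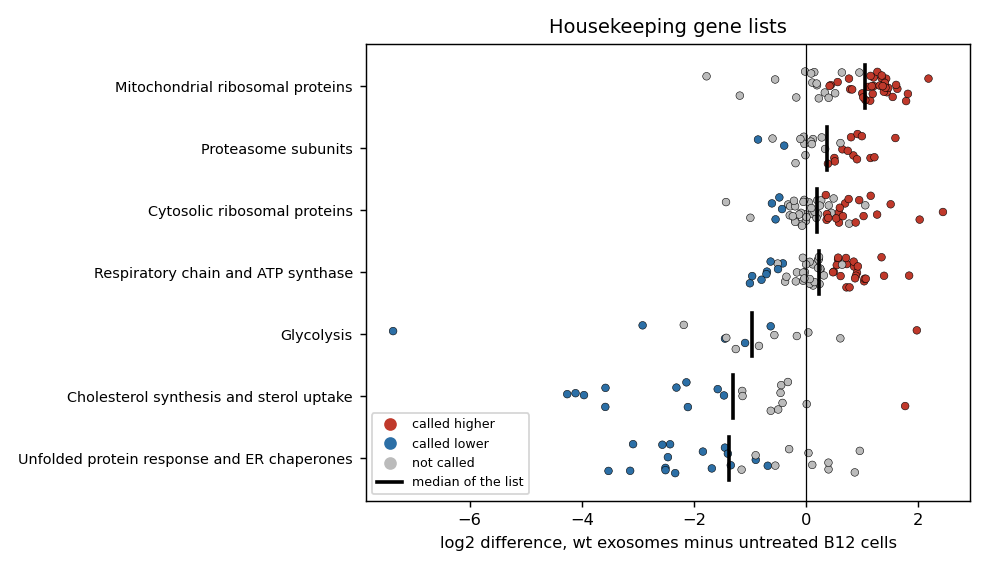
Log2 difference, wt exosomes minus untreated B12 cells (horizontal axis), of each gene tested in 7 lists, coloured by call, with a black bar at the median of each list. Mitochondrial ribosomal proteins sit right of 0 (median 1.06) and chaperone genes left of it (-1.37) after quantile normalization, while under median scaling the medians of all 7 lists were negative.

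The secretory pathway showed the opposite picture. Of 26 genes of the unfolded protein response and ER chaperones, 16 were lower in wt exosomes and 0 higher (all genes: 26.3% and 21.3%). The median was -1.37, and -1.35 without B12 array 2. The list was below all genes under every scaling tried, by 0.96 to 1.57. Hspa5, the main ER chaperone BiP, read 10.38, 9.90 and 10.11 in wt exosomes, against 12.25 and 12.86 in untreated B12 cells (-2.43 ± 0.23, SE, limma adjusted p = 0.000633). P4hb, protein disulfide isomerase, read 11.22, 11.11 and 11.12 in wt exosomes and 12.65 and 12.55 in untreated B12 cells. Herpud1 and Syvn1, of ER-associated degradation, fell by 3.09 and 3.14. The stress-induced factors of the same list did not follow: Ddit3 read 10.83, 10.76 and 10.75 in wt exosomes and 10.54 and 9.29 in untreated B12 cells, and Atf4 read 11.29, 11.33 and 11.14, against 10.53 and 11.18, and neither was called.

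Calls in sterol and carbohydrate metabolism are read against those of all genes tested, 21.3% higher and 26.3% lower. Of 20 genes of cholesterol synthesis and sterol uptake, 10 were lower (50%) and 1 higher (median -1.30), and without B12 array 1 the counts were 16 and 1. The 13 sterol genes detected on all 5 arrays gave only 3 lower and 1 higher, with a median of -0.499. The other members entered the test through the untreated B12 arrays only. Dhcr7, the last enzyme of cholesterol synthesis, was detected on no wt exosome array and was at least 12.9-fold lower, and Insig1, which holds back sterol-regulated transcription, read 7.00, 7.96 and 7.48 in wt exosomes and 12.45 and 10.43 in untreated B12 cells. Pmvk, a kinase of the mevalonate pathway, rose by 1.76 ± 0.17 (SE), but was -0.23 under median scaling. Of 14 glycolysis genes, 5 were lower (35.7%) and 1 higher, with a median of -0.97. The lower calls were 2 without exosome array 2 or 3, and 3 without exosome array 1 or B12 array 2. Without B12 array 2 the median was -0.51 over 15 genes tested. Slc16a3, the lactate exporter, was detected on 1 of 3 wt exosome arrays and read 4.70, 4.38 and 4.71 there, against 12.50 and 11.42 in untreated B12 cells (-7.37 ± 0.38, SE). Ldha and Pgk1, core glycolytic enzymes, differed by -0.17 ± 0.12 and 0.04 ± 0.19 (SE) and were not called. Within 31 genes of oxidative stress 7 were higher and 9 lower (median -0.15), with 4 lower on leaving out any 1 exosome array. Leaving out B12 array 2 gave a median of -0.47 over 33 genes tested. Mt1, a metallothionein, read 13.24, 13.28 and 13.15 in wt exosomes, against 10.74 and 8.45 in untreated B12 cells, while Cat, catalase, fell by 4.04 ± 0.54 (SE).

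Proteases, cytokines and growth factors split between the groups. Of 24 metalloproteinase and inhibitor genes 16 were lower and 4 higher in wt exosomes, where all genes gave 26.3% and 21.3%. Leaving out exosome array 3 left 2 higher. The 10 genes of this list detected on all 5 arrays gave 7 lower and 2 higher. Mmp14, the membrane collagenase, read 4.67, 4.48 and 5.60 in wt exosomes, against 8.71 and 11.35 in untreated B12 cells (-5.11 ± 0.80, SE), and Ctsl, a lysosomal protease, read 10.42, 10.05 and 10.28, against 14.95 and 13.97. Wfdc2, a secreted epithelial protease inhibitor, read 9.76, 10.12 and 9.74 in wt exosomes and 5.83 and 5.45 in untreated B12 cells. Mmp12, a macrophage elastase also made by tumours, was detected on no untreated B12 array and varied in wt exosomes, at 9.11, 5.97 and 8.34 (at least 10.3-fold higher, or 2.89-fold from exosome array 2 alone).

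Of 30 chemokines and cytokines tested, 13 were lower and 5 higher (median -1.13), against 26.3% and 21.3% of all genes. Without B12 array 2 the median was -0.40 over 37 genes tested. The 16 genes of this list detected on all 5 arrays gave 6 lower and 3 higher. Cxcl6, a neutrophil attractant, read 9.98, 9.43 and 10.04 in wt exosomes and was detected on no untreated B12 array (at least 41.4-fold higher), and Il33, an alarmin, read 12.16, 12.27 and 12.10 in wt exosomes, against 10.49 and 7.79 in untreated B12 cells. Vegfc, which drives lymphatic vessel growth, and Cx3cl1 were detected on no wt exosome array and were at least 64.2-fold and 53.0-fold lower (for Vegfc 42.3-fold and 97.2-fold against single B12 arrays). Tgfb2 and Csf1, the macrophage growth factor, fell by 6.54 and 6.50. Exosome array 2 read lowest of the exosome arrays in Ccl2 (9.54, 6.97 and 8.93) and Csf3 (8.43, 7.11 and 8.41).

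Antigen presentation genes were uneven. Of 26 interferon and antigen presentation genes, 9 were lower (34.6%) and 4 higher (15.4%), against 26.3% and 21.3% of all genes. The median was -0.24, and -0.55 over 29 genes tested without B12 array 1. B2m, the light chain of class I molecules, read 12.18, 12.00 and 12.21 in wt exosomes and 13.62 and 13.77 in untreated B12 cells (-1.57 ± 0.12, SE), and RT1-A1, a class I heavy chain, read 9.89, 9.68 and 9.68, against 12.08 and 11.86. Tapbp, the peptide-loading protein tapasin, fell by 4.10 ± 0.40 (SE). Psmb8, an immunoproteasome subunit, ran the other way, with 11.21, 11.31 and 11.37 in wt exosomes and 7.30 and 8.23 in untreated B12 cells (3.53 ± 0.27, SE). Class I heavy chain probes can read related loci.

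Growth-related genes were mixed. Of 39 cell cycle genes 9 were higher (23.1%) and 5 lower (12.8%), with a median of 0.02. Of 19 immediate early genes 3 were higher (15.8%) and 6 lower (31.6%), with a median of -0.07. The shares of all genes tested were 21.3% higher and 26.3% lower. Without B12 array 2 the median of the immediate early genes was -0.77, and without exosome array 3, 2 cell cycle genes were lower. Myc read 12.04, 11.91 and 11.81 in wt exosomes, against 10.59 and 9.42 in untreated B12 cells, and Fosl1, an AP-1 subunit, read 9.94, 10.10 and 10.01, against 7.38 and 7.76. Under median scaling the Fosl1 difference was 0.48, against 2.44 after quantile normalization, and was not called (limma adjusted p = 0.301). Junb and Zfp36, an AP-1 subunit and an mRNA decay factor, fell by 2.28 and 3.78. Cdc20 and Cdk4, of mitotic exit and G1 entry, rose by 1.53 and 1.30, and were -0.44 and -0.15 under median scaling.

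**Figure D5:**
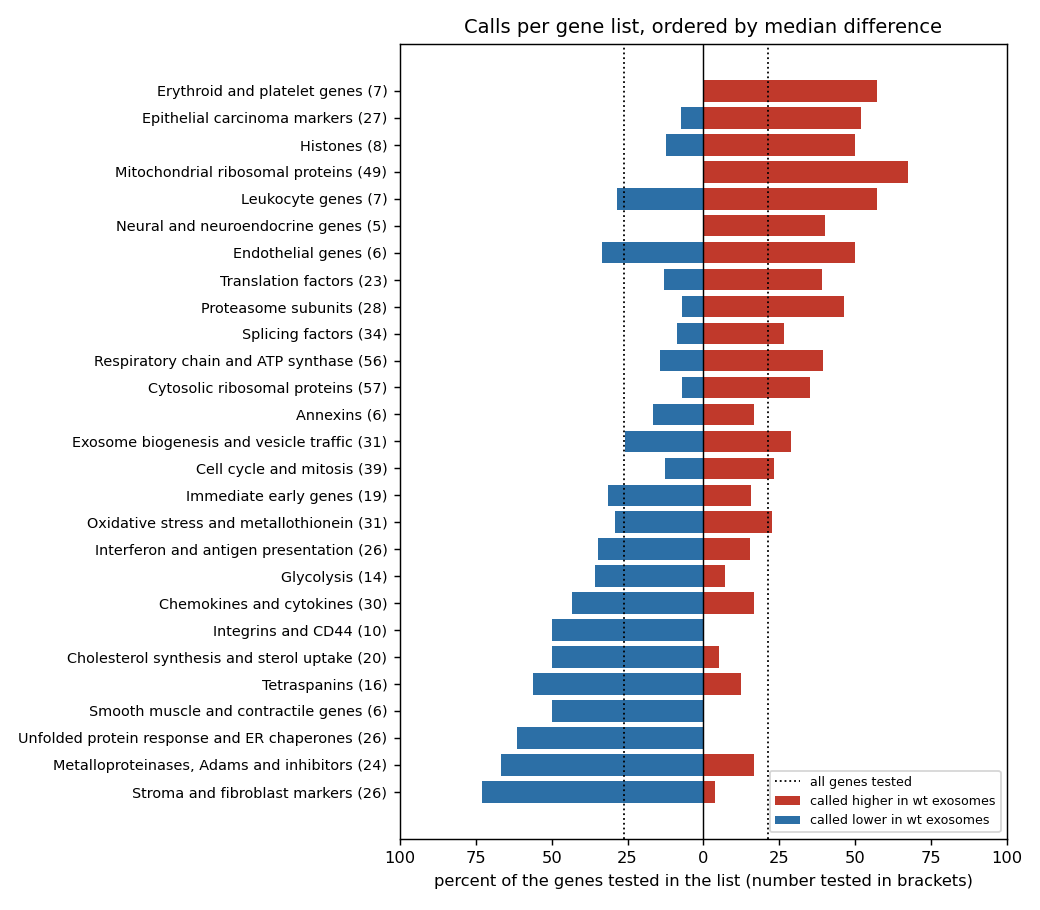
Percent of tested genes called higher (right) and lower (left) in wt exosomes for each list with at least 5 genes tested, ordered by median difference, with dotted lines at the share of all genes tested (21.3% and 26.3%). Stroma, protease and ER chaperone lists are mostly lower, and epithelial and mitochondrial ribosomal lists mostly higher, but under median scaling 0 mitochondrial ribosomal genes were higher and 21 lower.

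Markers of other cell types were read as a check on the vesicle preparation. Erythroid and platelet transcripts were present in wt exosomes: 4 of 7 tested were higher and 0 lower, against 21.3% and 26.3% of all genes. Their median was 4.68 (1.01 over 9 genes without B12 array 1). The 4 called members entered the test through the wt exosome arrays only, so the filter partly set their direction. The 2 members detected on all 5 arrays were not called, with a median of 0.789. The list summed to 0.0268%, 0.0264% and 0.0962% of the signal in wt exosomes, against 0.00243% and 0.00154% in untreated B12 cells. Pf4, platelet factor 4, read 10.36, 9.81 and 10.56 in wt exosomes and was detected on no untreated B12 array (at least 55.6-fold higher), and Ppbp, another platelet chemokine, read 9.07, 9.14 and 9.06, against 4.58 and 4.24. Hba-a1 and Hbb, the globin genes, were highest on exosome array 3, at 8.06, 8.47 and 11.91 for Hba-a1 and 9.34, 9.07 and 10.71 for Hbb, and no untreated B12 array detected either. They were at least 30.8-fold and 38.3-fold higher, and at least 11.5-fold and 24.6-fold from the lowest exosome array. Hba-a1 lost its call without background correction, with the authors' values and in the fit of all 12 arrays (limma adjusted p = 0.053, 0.0581 and 0.0682). Ahsp, the globin chaperone, was detected on exosome array 3 (9.36) and on neither of the other two, while both untreated B12 arrays detected it (7.06 and 6.17), and Gp9 and Treml1, of the platelet membrane, were detected on none of the 5 arrays.

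Leukocyte markers gave 4 of 7 tested higher and 2 lower (2 higher without exosome array 3 or either B12 array), with 0.0106%, 0.00694% and 0.0129% of the signal in wt exosomes and 0.0938% and 0.0196% in untreated B12 cells. The 4 leukocyte markers detected on all 5 arrays gave 2 higher and 1 lower. Ptprc, Cd3e, Cd4, Cd8a and Ms4a1, which define leukocytes and lymphocyte classes, were detected on none of the 5 arrays. Cd14, a monocyte receptor, read 5.26, 6.15 and 6.69 in wt exosomes, against 12.43 and 9.88 in untreated B12 cells. Of 6 endothelial genes tested 3 were higher and 2 lower. Tie1, an endothelial receptor kinase, was at least 24.99-fold higher by the brighter of its 2 probes tested. Vwf and Tek, the lower members, were detected on both untreated B12 arrays and on no wt exosome array. Cdh5, the endothelial cadherin, was detected on no array. Of 5 neural genes 2 were higher and 0 lower, with 3 higher without exosome array 1 and 1 without exosome array 2. Mbp, among these calls, had a signal over background of 12.9, 18.9 and 19.8 in wt exosomes, against 11.8 and 12.2. Of 6 smooth muscle genes 3 were lower and 0 higher, and 2 were lower on leaving out any 1 exosome array. Over all genes tested, 21.3% were higher and 26.3% lower. The part of RNA from these cell types in the results was not tested.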

How the data were processed

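RNA of 5 rat arrays was compared. Per the labels' protocols, RNA was extracted with Trizol, cleaned on RNeasy columns with DNase I, and labelled as biotinylated cRNA. Per the file headers, the deposited values are a mean intensity per probe, not normalized, and a p-value of the probe against its array's background. That p-value was read as two-sided from its values and turned into a one-sided one for background correction. The authors' second table holds linear intensities whose normalization and software are not given in the sources used here. It served as an alternative only.

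Of 23365 rows, 848 without an identifier and 571 that shared 1 of 280 repeated identifiers were left out, leaving 21946 probes. Of these, 13129 had 1 gene symbol and 8817 none. Intensities were corrected with neqc (limma 3.58.1, R 4.3.3, offset 16), quantile normalized and put on the log2 scale. The background of an array, subtracted for signal over background, was the median intensity of probes with p above 0.9. Probes detected (p under 0.05) on every array of at least 1 group were fitted with lmFit and eBayes with a trend, with 3 residual degrees of freedom, and adjusted by Benjamini-Hochberg over all probes tested. A gene with several probes was read by the probe with the highest mean. A probe detected on no array of 1 group has an "at least" fold, against the higher of its own value and the lowest detected level there. These folds hold for the quantile-normalized values and were not recomputed under other processing, where differences could be smaller. Over the alternatives on a log2 scale, Hsd11b1 differed by -9.50 to -6.18 and Col8a1 by -7.82 to -4.995. Summed shares are of the array's total signal over background. The number of arrays limits the precision.

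In 20 simulations of this comparison over 11097 probes, 7.5% of log2 differences of 1 and 37.2% of those of 2 were recovered, with 1.45 false calls on average. Far fewer probes differed in each simulation than were called in the data, which makes the adjusted threshold stricter there. The recovered shares therefore do not give the recovery in this comparison.

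The genes and lists were chosen with earlier results of these data known. Genes were named by rule: the largest called differences in each direction (8 detected on all arrays, 6 detected in 1 group only, no overlap between groups), up to 4 called members of each list by smallest p, and Cd44, Tspan8, Cd63, Cd82, Cd151, Epcam and Vim. Ahsp, Anxa2, Atf4, Ccl2, Cdh1, Cdh17, Cldn3, Col1a1, Col3a1, Csf1, Csf3, Cxcl12, Ddit3, Esrp1, Il33, Insig1, Itgb1, Itgb4, Krt8, Krt19, Ldha, Lgals4, Lum, Macroh2a1, Mmp12, Mmp14, Mt1, Myc, Pdpn, Pgk1, Prss8, Rab27a, Rps21, Sdcbp, Sf3b1, Sparc, St14, Tspan1, Tspan33 and Twist1 fall outside it and were added from the lists after their values were seen. Replicate numbers were not shown to pair the arrays: deviations of same-numbered arrays correlated at -0.0318 and -0.0433. Deviations of 2 B12 arrays from their mean mirror each other, so these values cannot decide whether the numbers pair. Other scalings, background corrections, filters, weights, the authors' values and leaving out each array were tried. Protein lengths were not used here.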

Additional observations from a re-analysis of the deposited data

How the results depend on the processing

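Of 11097 probes, 5281 were called, and between 3829 and 7295 under the scalings, background corrections, weights, the unfiltered fit, the authors' values and the fit of all 12 arrays. Requiring detection on all 5 arrays tested 7121 probes and called 3273, 67.9% of them higher. With the replicate block 2968 were called (1334 higher, 1634 lower), although the numbers were not shown to pair the arrays; 0 calls turned direction. Leaving out 1 array gave 3858 to 5199 calls. Probes detected in wt exosomes only numbered 328, or 681 when 2 of 3 exosome arrays sufficed, and 401 to 614 on leaving out 1 array; those in untreated B12 cells only numbered 1346, 2181 when detection on 1 exosome array was allowed, and 1527 to 2091 on leaving out 1 array. The difference in mean signal over background was -406.5, with -448 to -364.9 on leaving out 1 array. Median scaling turned 461 calls, and the share of the mean signal 4. Under median scaling the differences of named genes that turned were Eno1 (-0.016), Snrnp70 (-0.011), Arf6 (-0.12), Chmp4c (-0.16), Pmvk (-0.23), Mrpl23 (-0.20), Mrpl55 (-0.18), Rac2 (-0.48), Cdc20 (-0.44), Rps13 (-0.0090), Eif2s1 (-0.65), Snf8 (-0.52), Cdk4 (-0.15), Ube2c (-0.74), Psmc5 (-0.69), Psma6 (-0.31), Snrpa (-0.63), Eif6 (-0.16), Cycs (-0.013), Cox5a (-0.37), Hnrnpl (-0.63), Psmd12 (-0.80), Atp5mg (-0.26), Eif5a (-0.10), Ndufa2 (-0.85), Txn1 (-0.51), Psmb6 (-0.77), Anxa1 (-0.019) and Eif2s2 (-0.68). Tspan8 was 0.82 without B12 array 1 and -3.84 without B12 array 2. Of 129 named genes that were called, 36 were not called under median scaling, 11 with the replicate block, 10 under the share of the mean signal and at most 8 under any other alternative. Bounds set by single arrays of the brighter group were added after seeing the data. The cause was not tested. Genes added outside the naming rule were not rerun one by one, and the planned comparison with protein length was not run. The exosome arrays' low signal over background limits what can be read near background.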

Other observations

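Probes without a gene symbol leaned toward wt exosomes. Of 3456 such probes tested, 29.4% were higher and 18.4% lower in wt exosomes than in untreated B12 cells, against 21.3% and 26.2% of the 7641 probes with a symbol. The files do not name these transcripts.

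The kd exosome arrays differed among themselves at genes that separate wt exosomes from untreated B12 cells. Gja1, the gap junction protein, lay at within-array percentiles of 93.94, 94.83 and 47.85 on kd exosome arrays 1 to 3, and was detected on the first pair only. Clic2 lay at 96.12, 95.73 and 75.72. Pf4, the platelet chemokine, lay at 69.16, 73.44 and 97.34, and Ccn2, a matricellular growth factor, at 16.03, 10.67 and 88.84. In each of these genes kd exosome arrays 1 and 2 lay together and array 3 apart.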
